A study of Mus musculus with 60 samples.

Results

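The genes described here encode the T cell receptor complex and its first signalling steps: the CD3 chains Cd3e, Cd3d and Cd3g, the zeta chain Cd247, the kinases Lck and Zap70, the adaptor Lat, the protein kinase C isoform Prkcq, and the surface glycoprotein Thy1. The 9 genes were taken as a named list with no measured value in its rule. Of these, 8 had a probe set naming them alone in the platform annotation, with 13 probe sets in all, out of 18193 genes measured this way; Lck was not analysed here. Expression was measured on 60 Affymetrix arrays: 25 early lymphomas (onset at 32 to 76 days of age) and 25 late lymphomas (253 to 649 days) of Eµ-myc transgenic mice, and 10 normal tissues of wild-type mice. In the Eµ-myc transgene the immunoglobulin heavy chain enhancer drives Myc, chiefly in B lineage cells. Of the normal tissues, 6 were nodes from young animals (38 to 73 days), 3 were nodes from old animals (387 to 438 days) and 1 was a spleen (304 days). Whole tissue was used, so a lymphoma sample could also hold non-malignant cells of its host, and no normal tissue carried the transgene.

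The T cell receptor has no signalling activity of its own. Its antigen-binding chains sit in the membrane with CD3 epsilon, delta and gamma and with a pair of zeta chains, whose cytoplasmic tails are phosphorylated by Lck after contact with antigen. ZAP-70 binds those phosphorylated tails and in turn phosphorylates the adaptor LAT, on which a signalling complex assembles, while protein kinase C theta, the product of Prkcq, carries the signal on to NF-kB. In lymph nodes and spleen these genes are known as T cell genes, with part of the set (Cd247, Zap70, Lat, Thy1) also used in NK cells, and Thy1 in stromal cells.

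Cd3g, Cd3d and Cd3e lie side by side on mouse chromosome 9, with 1355 bases between the RefSeq start sites of Cd3g and Cd3d, which are transcribed away from each other, and 27825 bases between those of Cd3d and Cd3e. Because these 3 neighbours are compared below, the 150 bases before each start site are shown 5′ to 3′ on the gene's own strand, from the RefSeq promoter table of build GRCm38.p6. They are at chr9:44980432-44980581 (minus strand) for Cd3g, chr9:44981636-44981785 (plus strand) for Cd3d and chr9:45009612-45009761 (minus strand) for Cd3e. Capitals mark matches, on either strand, to 6 motifs: RUNX (TGTGGT), ETS (AGGAAG), the E-boxes CAGGTG and CAGCTG, TCF1/LEF1 (CTTTGA) and the motif of GATA factors (AGATAA).
Cd3g: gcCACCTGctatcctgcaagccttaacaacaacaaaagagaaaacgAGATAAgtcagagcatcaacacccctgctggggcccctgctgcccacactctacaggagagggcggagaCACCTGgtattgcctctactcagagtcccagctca
Cd3d: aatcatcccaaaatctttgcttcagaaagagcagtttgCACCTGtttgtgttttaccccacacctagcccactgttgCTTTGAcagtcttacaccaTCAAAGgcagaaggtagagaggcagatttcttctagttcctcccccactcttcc
Cd3e: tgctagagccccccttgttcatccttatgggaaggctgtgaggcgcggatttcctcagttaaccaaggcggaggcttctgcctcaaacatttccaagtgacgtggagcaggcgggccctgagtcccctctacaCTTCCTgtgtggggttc
The Cd3g window held 3 matches, a pair of CAGGTG E-boxes and 1 GATA motif. The Cd3d window also held 3, a CAGGTG E-box and a TCF1/LEF1 motif on each strand, and the Cd3e window held 1 ETS motif. No 2 matches overlapped. Over 32851 promoter windows of the same length, the share with a match was 8.4% for RUNX, 19.7% for ETS, 10.6% for CAGGTG, 8.39% for CAGCTG, 7.93% for TCF1/LEF1 and 5.65% for GATA. A match describes these letters and not a bound site.

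The deposited values are linear intensities scaled by the authors to a common trimmed mean of 500 on every array. Changes below are differences of log2(intensity + 15.7) with standard errors, tested with limma across 27094 probe sets, two-sided, with Benjamini-Hochberg adjusted p-values and a threshold of 0.05. The array's median intensity, a guide to which values are dim, ranged from 124 to 206 in early lymphomas, from 122 to 184 in late lymphomas and from 183 to 198 in normal tissue. The labels do not say which samples share a mouse, a litter or a processing day, so the p-values speak only of the spread among the samples at hand. The number of arrays limits the precision. Intensities of different genes are not compared with each other; a member's level is instead given as a percentage of its own median in the 10 normal tissues. The labelled tissues were checked against markers. The 13 T cell surface genes had a mean log2 level of 10.05 to 10.97 in the 10 normal tissues, against 6.06 to 8.22 in early and 6.83 to 9.66 in late lymphomas. The 10 B lineage genes had a mean log2 level of 10.87 to 11.69 in normal tissue, 9.02 to 11.79 in early and 8.45 to 11.93 in late lymphomas, so some tumours were low in B lineage markers.

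Both groups of lymphomas held less of the receptor transcripts than normal lymph node or spleen. In early lymphomas 7 of the 8 members fell, with log2 changes of -5.86 to -3.32, and no early lymphoma reached the lowest normal tissue for any of those 7. In late lymphomas all 8 fell, and 24 of 25 lay below every normal tissue for the same 7. The exception in each case was late lymphoma 130. The 7 include Prkcq, which passed the filter mainly through normal tissue and had to differ, so it adds no support to these counts. Of all probe sets tested, 39.8% were lower in early lymphoma and 32.4% were lower in late lymphoma, and 9.23% had every early lymphoma, and 3.52% every late lymphoma, below every normal tissue. Without lymphoma 130, the last share was 3.81%. The median change of the 8 members was -3.99 in early and -3.44 in late lymphoma, beside -0.12 and -0.09 over all probe sets. Prkcq is included in these medians, which are therefore given as a description. Both comparisons use the same 10 normal tissues. From whole tissue, fewer T cells and less of these RNAs per cell cannot be told apart.

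**Figure D1:**
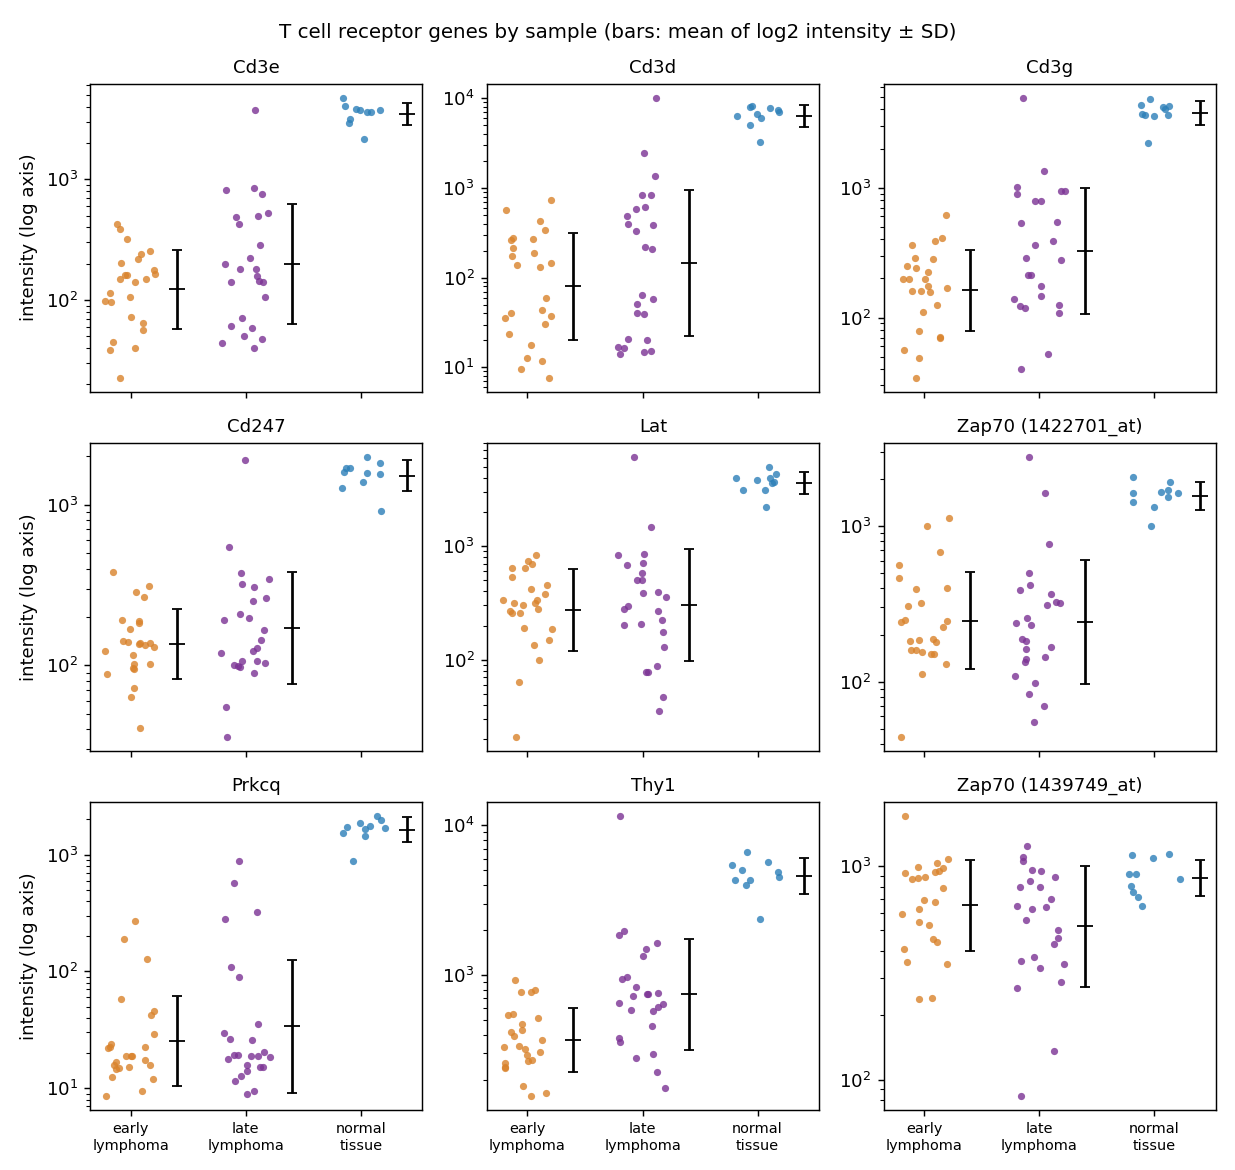
Intensity (log axis) of each member in every sample, by group; each point is 1 sample and the black bar is the mean of log2 intensity ± SD of the 25 early lymphomas, 25 late lymphomas or 10 normal tissues. For all but Zap70, the late lymphoma at the level of the normal tissues is lymphoma 130, and Zap70 is shown by 2 probe sets that differ.

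Cd3e, the epsilon chain that pairs with each of the other CD3 chains, had a median intensity of 3657 in normal tissue (range 2140 to 4750). In early lymphomas it ranged from 22.8 to 427 with a median of 150, and in late lymphomas from 40.2 to 3751 with a median of 180. Early and normal samples did not overlap, and late and normal samples overlapped only through lymphoma 130. Cd3e fell in both groups, with a log2 change of -4.62 ± 0.29 (SE) in early lymphoma (adjusted p = 4.8e-17) and -3.98 ± 0.46 in late lymphoma (adjusted p = 5.1e-09).

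Cd3d, the delta chain, had the largest difference of the members. Its median was 6826 in normal tissue (3255 to 8156), 131 in early lymphomas (7.66 to 737) and 208 in late lymphomas (14.1 to 10156). It fell in both groups, with a log2 change of -5.86 ± 0.47 in early lymphoma (adjusted p = 7.7e-14) and -5.09 ± 0.72 in late lymphoma (adjusted p = 2e-07). Only 10 early and 13 late lymphomas were above their own array's median for Cd3d, so many of the low values are dim ones whose exact size is poorly measured.

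Cd3g, the gamma chain, had a median of 3888 in normal tissue (2212 to 4849). Early lymphomas ran from 34.4 to 617 with a median of 175, and late lymphomas from 40.4 to 4934 with a median of 286. It fell in both groups, with a log2 change of -4.38 ± 0.28 in early lymphoma (adjusted p = 1.4e-16) and -3.43 ± 0.46 in late lymphoma (adjusted p = 9.8e-08). Here too lymphoma 130 alone among the late lymphomas reached the normal range.

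Cd247, the zeta chain that carries most of the receptor's phosphorylation sites, had a median of 1576 in normal tissue (915 to 1986), 136 in early lymphomas (41.0 to 380) and 144 in late lymphomas (36.0 to 1890) by probe set 1426396_at. It fell in both groups, with a log2 change of -3.32 ± 0.21 in early lymphoma (adjusted p = 4.8e-17) and -3.01 ± 0.33 in late lymphoma (adjusted p = 1.4e-09). A further Cd247 probe set, 1452539_a_at, changed by -4.31 ± 0.23 and -3.63 ± 0.40; it was above the array median in 0 early lymphomas, 2 late lymphomas and all 10 normal tissues, so it passed the filter through the group where it is high and does not add support. The other 2, 1426079_at and 1420716_at, did not pass the filter on low values: they were above the array median on 1 and 0 of the 60 arrays, normal tissues included, and give no measure of the gene.

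Lat, the adaptor, had a median of 3729 in normal tissue (2202 to 5013), 313 in early lymphomas (21.0 to 841) and 299 in late lymphomas (35.4 to 6121). It fell in both groups, with a log2 change of -3.59 ± 0.33 in early lymphoma (adjusted p = 1.9e-12) and -3.46 ± 0.47 in late lymphoma (adjusted p = 9.6e-08). Prkcq, the kinase that links the receptor to NF-kB, was close to the floor of the array in most tumours. Its median was 1706 in normal tissue (878 to 2154), 18.8 in early lymphomas (8.61 to 271) and 19.1 in late lymphomas (9.00 to 880). It fell in both groups, with a log2 change of -5.22 ± 0.29 (adjusted p = 2.1e-18) and -4.85 ± 0.46 (adjusted p = 6.1e-11). Prkcq was above the array median in 2 early lymphomas, 4 late lymphomas and all 10 normal tissues, so it passed the filter mainly through the group where it is high and had to differ.

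Thy1, a small glycosylphosphatidylinositol-anchored protein of T cells, stayed above the array median in all 50 lymphomas. Its median was 4700 in normal tissue (2378 to 6629), 334 in early lymphomas (156 to 932) and 724 in late lymphomas (177 to 11602). It fell in both groups, with a log2 change of -3.58 ± 0.22 in early lymphoma (adjusted p = 2.4e-17) and -2.59 ± 0.38 in late lymphoma (adjusted p = 3.6e-07).

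**Figure D2:**
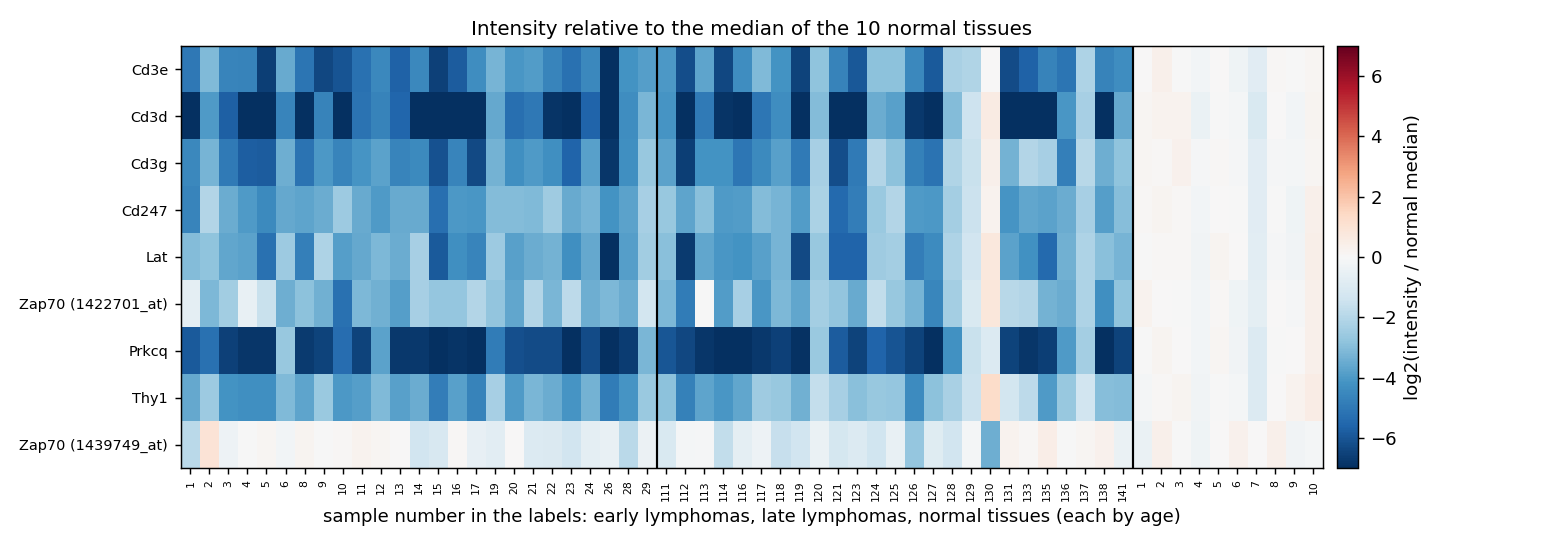
Log2 ratio of each member's intensity to its own median in the 10 normal tissues (colour scale limited at 7 either way), with samples in columns by group and age and probe sets in rows. Lymphoma 130 is the late lymphoma column that is pale to red in all rows but Zap70 by probe set 1439749_at (9.45% of the normal median). That row stays near the normal level in most tumours.

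Zap70, the kinase recruited to the phosphorylated zeta chain, gave different answers by probe set. The probe set with the highest mean, 1439749_at, which has no accession in the annotation used, had a median of 890 in normal tissue (648 to 1132), 691 in early lymphomas (240 to 1717) and 627 in late lymphomas (84.1 to 1233). The groups overlapped widely, with 14 early and 10 late lymphomas at or above the lowest normal tissue. Its change was -0.42 ± 0.21 in early lymphoma (adjusted p = 0.083), which did not pass, and it fell by 0.73 ± 0.28 in late lymphoma (adjusted p = 0.026). This late call was lost with arrays centred on their median (-0.45, adjusted p = 0.133) and against the old normal tissues alone (-0.74, adjusted p = 0.19), and the early change passed with the RNA ratios as covariates (-0.49, adjusted p = 0.046).

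The probe set designed on the RefSeq transcript of Zap70, 1422701_at, fell in both groups. Its median was 1634 in normal tissue (1000 to 2073), 225 in early lymphomas (44.3 to 1123) and 230 in late lymphomas (54.9 to 2796), and its change was -2.57 ± 0.30 (adjusted p = 8.2e-10) and -2.58 ± 0.38 (adjusted p = 5.1e-07). A further probe set, 1440178_x_at, changed by -1.55 ± 0.25 and -1.43 ± 0.28. Among the 25 early lymphomas the levels of 1439749_at and 1422701_at had a Spearman rho of -0.28, and among the 25 late lymphomas of 0.01, as a description. Lymphoma 130 had the lowest level of 1439749_at and the highest of 1422701_at among the late lymphomas. Below, Zap70 is given by 1422701_at where levels in single tumours are described; this choice was made after the values were seen.

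The count of 7 members lower in early lymphoma became 8 with Zap70 taken by that probe set, and the count in late lymphoma was 8 either way and also without lymphoma 130. Scaling moved the median change over all probe sets from -0.12 to 0.08 (quantile normalization) or 0.22 (arrays centred on their median) in early lymphoma, and from -0.09 to 0.08 or 0.19 in late lymphoma. The share of calls that were higher moved with it, from 41.6% to 54.8% or 65.1% in early and from 40.9% to 55.3% or 65.8% in late lymphoma. All 8 members kept a negative change in both comparisons under these scalings.

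**Figure D3:**
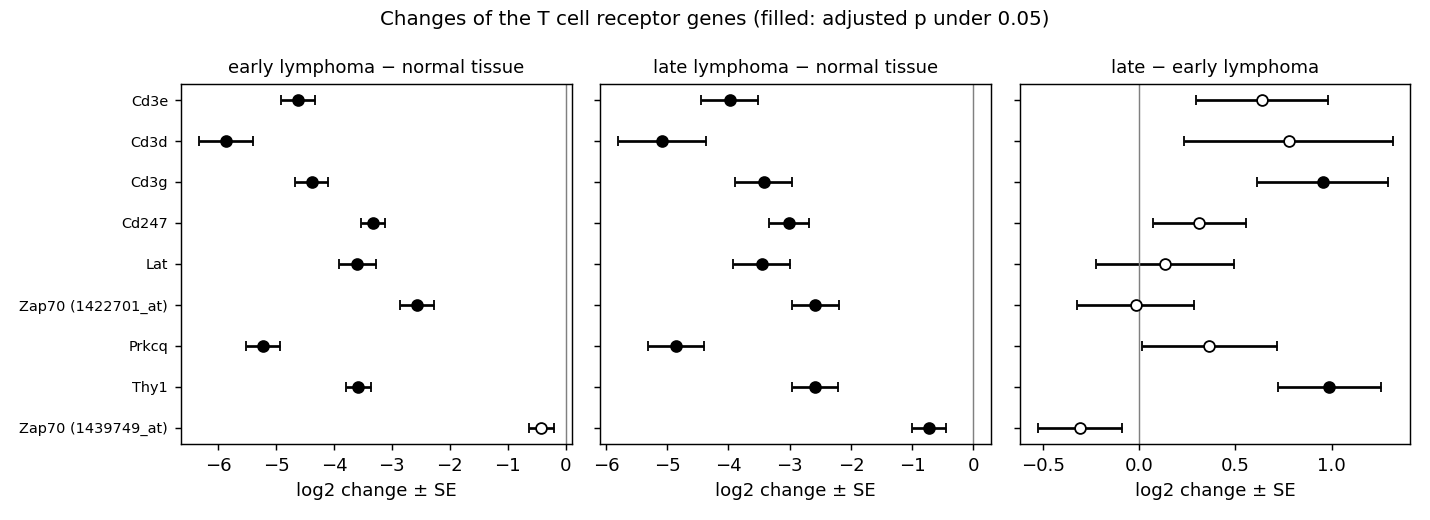
Log2 change ± SE from limma for each member in the 3 comparisons, filled where the adjusted p was under 0.05. The changes against normal tissue lie between -5.86 and -0.42, and those between late and early lymphoma lie between -0.31 and 0.99.

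Between late and early lymphoma, 2 of the 8 members differed: Thy1 was higher by 0.99 ± 0.27 (adjusted p = 0.0073) and Cd3g by 0.95 ± 0.34 (adjusted p = 0.037) in late lymphoma. Of all probe sets, 22% were called in this comparison, so 2 of 8 is near the background; with the RNA ratios as covariates 6.44% were called (1745 probe sets in place of 5951). The other differences did not pass: Cd3d 0.78 ± 0.54, Cd3e 0.64 ± 0.34, Prkcq 0.37 ± 0.35, Cd247 0.31 ± 0.24, Lat 0.13 ± 0.36 and Zap70 by 1422701_at -0.02 ± 0.30. The 95% interval (normal approximation) was -0.28 to 1.84 for Cd3d and -0.57 to 0.84 for Lat. The Cd3g call was lost without lymphoma 130 (0.80 ± 0.31, adjusted p = 0.055), and in 13 of the 50 fits that left out 1 lymphoma (early 4, 5, 15, 17 or 26, late 120, 124, 125, 128, 129, 130, 133 or 137; adjusted p up to 0.0607). Thy1 was called in all 50. With the 3-prime to 5-prime ratios of Gapdh and beta-actin as covariates neither was called (Cd3g 0.81, adjusted p = 0.181; Thy1 0.91, adjusted p = 0.0524); the Gapdh log2 ratio averaged -0.38 in early and -0.43 in late lymphomas. In the same tumours the NK and cytotoxic list averaged 7.39 ± 0.58 (SD, n = 25) in early and 7.96 ± 0.92 in late lymphomas, and the plasmacytoid dendritic list 8.79 ± 0.25 and 9.39 ± 1.01; their part in these differences was not tested.

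Single tumours differed in how many members they held. At 20% or more of the normal median, a cut chosen after the values were seen and given as a description, 15 early lymphomas had no member and 10 had 1, whereas among late lymphomas 13 had none, 4 had 1, 2 had 2, 2 had 3, 1 had 4, 1 had 6 and 2 had all 8. The single member in early lymphomas was Zap70 in 7 tumours, Lat in 2 and Cd247 in 1.

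Late lymphoma 130 (onset at 427 days) had 7 of the 8 members at or above the lowest normal tissue, the exception being Zap70 by 1439749_at at 84.1 (9.45% of the normal median), and all 8 with Zap70 by 1422701_at. It had Cd3e at 3751 (103% of the normal median), Cd3d at 10156 (149%), Cd3g at 4934 (127%) and Cd247 at 1890 (120%). Lat stood at 6121 (164%), Zap70 by 1422701_at at 2796 (171%) and Thy1 at 11602 (247%). Cd3d, Cd3g, Lat, Zap70 and Thy1 were above every normal tissue. Prkcq was the lowest of the set at 880 (51.6%), next to the 878 of the normal spleen and below every normal lymph node. Trbv1, a T cell receptor beta variable segment, was at 14256 (180%), and Trat1, which encodes a protein associated with the receptor, was at 926 (266%); both were above every normal tissue.

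Other T cell genes of lymphoma 130 did not all reach normal levels. Of 27 other receptor signalling genes, 13 were at or above the lowest normal tissue, and of 13 T cell surface genes 6 were. The share of all probe sets at that level in this tumour was not computed. These counts, and that of the members above, are descriptions. Cd8b1, a chain of the CD8 co-receptor, was at 7129 (223% of the normal median) and Cd28, a co-stimulatory receptor, at 1918 (161%), while Il7r, the interleukin-7 receptor, was at 641 (12.9%) and Cd7 at 16.2 (2.52%). Its B lineage genes were the lowest of the 60 samples as a list, with a mean log2 level of 8.45 against 10.87 to 11.69 in normal tissue. Cd79a and Cd79b, which encode the signalling chains of the B cell receptor, were at 517 (4.02%) and 407 (5.88%).

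Late lymphomas 129, 137 and 120 held the whole set at an intermediate and fairly even level. In lymphoma 129 (onset at 413 days) the 8 members lay between 23.1% (Cd3e) and 47.3% (Zap70) of the normal median, and in lymphoma 137 (567 days) between 18.9% (Prkcq) and 39.5% (Thy1). In lymphoma 120 (340 days) they lay between 12.3% (Cd3d) and 31.6% (Thy1), with 3 members at 20% or more. Lymphoma 128 (412 days) held 4 members at 20% or more, with Prkcq lowest at 5.24% and Cd3g highest at 22.9%. Cd3d was at a level like the rest in 129, 137 and 120, at 35.9%, 19.7% and 12.3%. The NK and cytotoxic list stood at 9.75, 9.44 and 9.52 in those 3 tumours and at 9.43 in lymphoma 128. It ran from 6.65 to 9.75 over all late lymphomas and from 9.42 to 10.08 in normal tissue. In 129, 137 and 120 Cd79a was at 4153, 1396 and 1455, beside a normal range of 9435 to 15902. Cd79b was at 6144, 4585 and 10218 in the same tumours, beside 5033 to 10217. The B lineage list was at 11.111, 10.285 and 10.778, beside 10.871 to 11.694 in normal tissue, so B lineage genes were not evenly low. The part of admixed cells in these levels was not tested.

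A different pattern was 1 to 3 members raised with Cd3d near the floor. Lymphoma 133 (457 days) had Cd3g at 24.3%, Zap70 at 23.7% and Thy1 at 28.5% of the normal median but Cd3d at 0.249% and Cd3e at 1.94%. Lymphoma 135 (464 days) had Cd3g at 20.3% with Cd3d at 0.571%, and lymphoma 131 (437 days) had Thy1 at 41.7%, Zap70 at 25.7% and Cd3g at 10.1% with Cd3d at 0.587%. Lymphoma 121 (341 days) had Thy1 at 20.2% with Cd3d at 0.224%. So Cd3g and Cd3d, whose start sites are 1355 bases apart, were not at matching levels in every tumour. Over each whole group their levels rose together, with a Spearman rho of 0.93 among early and 0.74 among late lymphomas, as a description. In lymphomas 131 and 133 the plasmacytoid dendritic list was at 11.14 and 11.67, above the normal range of 10.15 to 10.59, with Cd8b1 at 12053 and 15755 and Cd4 at 6737 and 10433. Lymphoma 117 (319 days) had the same list at 11.37 and Cd8b1 at 10873, with Thy1 at 17.8%, Cd3e at 11.7% and Cd3g at 4.51%. Lymphoma 127 (408 days) also had the list above the normal range, at 10.79, but no member at 20% or more. Its Thy1 was at 13.9%, Zap70 at 4.3% and Cd3g at 2.8%. Lymphoma 135 had the list at 9.37.

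Zap70 was the member most often at 20% or more alone, in 7 early lymphomas and 1 late one. By 1422701_at it was at 1002 in early lymphoma 1 (61.3% of the normal median), 1123 in early lymphoma 4 (68.7%) and 1622 in late lymphoma 113 (99.3%), each at or above the lowest normal tissue. In these 3 tumours Cd3d was at 0.594%, 0.263% and 3.22% and Prkcq at 1.70%, 0.892% and 0.89%. Their B lineage lists were at 11.28, 11.31 and 11.93, within or above the normal range. Rag1, a recombinase of immature lymphocytes, was at 6808 in early lymphoma 1 and 5184 in late lymphoma 113, but at 2.55 in early lymphoma 4. Normal tissue had at most 69.1, and the median of the early lymphomas was 244. Early lymphomas with less Zap70 also had high Rag1, such as 11 (3156, Zap70 at 11.3%) and 28 (1335, Zap70 at 9.17%).

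Among early lymphomas the highest level fell in a different tumour from member to member. Lymphoma 9 had the highest Lat (841, 22.6%) and lymphoma 4 the highest Zap70 by 1422701_at (1123, 68.7%). Lymphoma 29 had the highest Cd3d (737, 10.8%) and Cd3g (617, 15.9%), lymphoma 2 the highest Cd3e (427, 11.7%) and Cd247 (380, 24.1%), and lymphoma 19 the highest Thy1 (932, 19.8%). Lymphoma 6 had the highest Prkcq (271, 15.9%), with the lowest B lineage list of the early group (9.02) and Cd79a at 113.

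**Figure D4:**
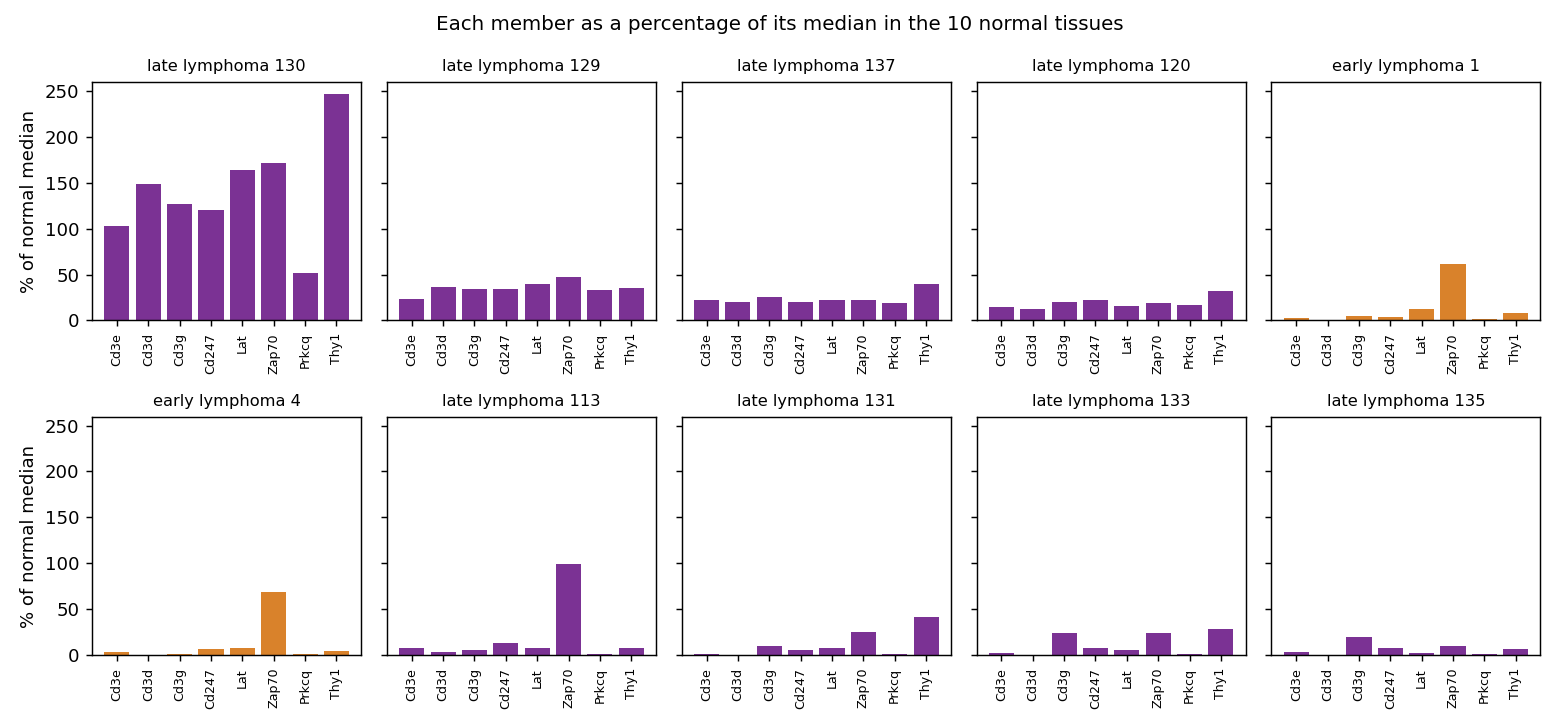
Each of the 8 members as a percentage of its median in the 10 normal tissues, in 10 single lymphomas named in the text (1 sample each, no error bar; early in orange, late in purple; Zap70 by 1422701_at). Lymphoma 130 has these 8 between 51.6% and 247%. They lie between 23.1% and 47.3% in 129, 18.9% and 39.5% in 137, and 12.3% and 31.6% in 120. At 20% or more, 120 has 3 members, and the remaining tumours shown have 1 to 3.

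Whether the members rose and fell together from tumour to tumour was examined by their relation to Cd3e within each lymphoma group, for 14 partner genes and 28 relations in all, called by Spearman's rho with a permutation test (100000 resamples, two-sided) and adjustment over the 28. In late lymphomas Cd3d (r = 0.88, adjusted permutation p = 9.33e-05; rho = 0.79, adjusted permutation p = 9.33e-05), Cd247 (r = 0.88, rho = 0.86) and Lat (r = 0.85, rho = 0.82) followed Cd3e most closely; the raw p of 1e-05 is the smallest these permutations can give. Without the 2 tumours farthest from the median Cd3e level, 130 and 129, their r was 0.81, 0.78 and 0.75. Prkcq (r = 0.76, rho = 0.62, adjusted permutation p of rho = 0.004013) and Cd3g (r = 0.73, rho = 0.65, adjusted permutation p of rho = 0.00248) had an r of 0.59 and 0.56 without those tumours. Thy1 (r = 0.64, rho = 0.50, adjusted permutation p of rho = 0.02) had 0.36 without them, and so its relation rested on them. Zap70 had no such relation by 1439749_at (rho = -0.08) and had one by 1422701_at (r = 0.67, rho = 0.61, adjusted permutation p of rho = 0.004327; r = 0.45 without those tumours).

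Among early lymphomas the CD3 chains again followed Cd3e; whether the coefficients differ between the groups was not tested. Cd3g (r = 0.67, rho = 0.70, adjusted permutation p of rho = 0.00084) and Cd3d (r = 0.66, rho = 0.69, adjusted permutation p of rho = 0.00112) were closest, and r was 0.55 and 0.58 without lymphomas 26 and 5. Prkcq (rho = 0.61), Thy1 (rho = 0.56), Cd247 (rho = 0.51) and Lat (rho = 0.51) also passed. Prkcq was above the array median in only 2 early and 4 late lymphomas, so its relations rest mostly on dim values. Zap70 did not by either probe set (rho = -0.13 and -0.04). In both groups Nkg7 (rho = 0.49 in early and 0.58 in late) and Klrk1 (rho = 0.51 and 0.64), of the NK and cytotoxic list, passed as well. Cd4 (rho = -0.07 and 0.32), Cd2 (rho = -0.24 and -0.37) and the macrophage receptor Csf1r (rho = 0.28 and 0.28) did not. In all, 8 of 14 relations passed in early and 10 of 14 in late lymphomas; without lymphoma 130 the late count was 8, with Thy1 (rho = 0.43) and Cd8a (rho = 0.42) no longer passing. The share of all genes that would pass the same test with Cd3e was not computed, so these counts are descriptions of the chosen partners. The samples share whatever mix of cells each tumour held, and the part of that mix in these relations was not tested.

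**Figure D5:**
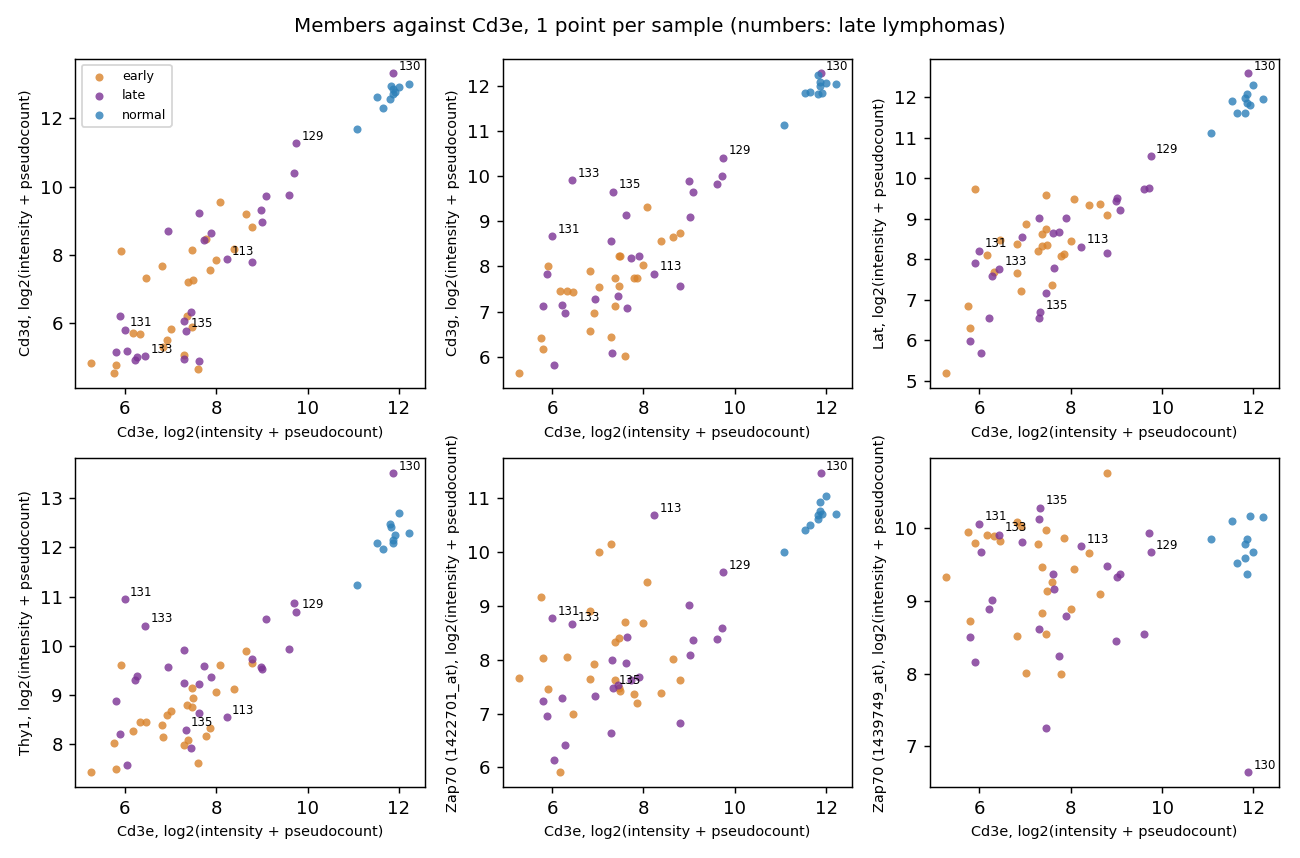
Log2(intensity + pseudocount) of 6 probe sets against Cd3e, 1 point per sample, coloured by group, with late lymphomas 113, 129, 130, 131, 133 and 135 numbered. Cd3d and Lat follow Cd3e up to lymphoma 130, tumours 133 and 135 have Cd3g at 24.3% and 20.3% of the normal median beside Cd3e at 1.94% and 3.97%, and Zap70 by 1439749_at shows no rise with Cd3e.

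Over all 50 lymphomas the 3 genes nearest to each member were named by Spearman's rho over 12600 genes, as a description across tumours that share arrays and cell mixtures. For Cd3d they were Trbv1 (0.93), the T cell membrane gene Ms4a4b (0.92) and the receptor alpha segment Trav9d-3 (0.92). Trbv1 was also nearest to Cd3e (0.79) and Cd247 (0.84), and Cd3d was nearest to Lat (0.84). Cd3g had the interferon-induced GTPase gene Iigp1 (0.79), Cd3d (0.79) and Nkg7 (0.79), and Prkcq had Slfn1 (0.78), Cd3d (0.74) and Trav9d-3 (0.70). Thy1 had Fxyd5 (0.75), Cd3g (0.70) and Cd28 (0.70). Zap70 by 1439749_at had Tiam2 (0.74), Gli3 (0.71) and Golga7b (0.62), none of them a member, and by 1422701_at Crygf (0.56), Spry2 (0.55) and Sit1 (0.55).

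The other genes of receptor signalling were mostly lower as well. Of 27 tested, 23 fell in early lymphoma, 1 was higher and 3 did not pass, with a median change of -1.37. Skap1, an adaptor (-3.17 ± 0.24), Fyb, the adaptor ADAP (-2.99 ± 0.23), Ptpn22, a phosphatase that restrains Lck and ZAP-70 (-2.88 ± 0.14), and Txk, a Tec family kinase (-2.71 ± 0.29), fell most, and Csk, the kinase that inhibits Lck, was higher (0.43 ± 0.07). In late lymphoma 22 of 27 fell and 5 did not pass, with a median of -1.11; Txk (-2.58 ± 0.34) and Dgka, a diacylglycerol kinase (-2.48 ± 0.25), fell most. Of all probe sets, 39.8% were lower in early and 32.4% in late lymphoma. Txk was above the array median on 18 of 60 arrays, all 10 normal tissues among them. It passed the filter largely through normal tissue, so its fall adds no support. Many of these genes also work in B cells.

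Late lymphoma had 8 of these 27 higher than early lymphoma and 1 lower, with 18 not passing. Of all 27094 probe sets, 22% were called in this comparison, 2596 higher and 3355 lower in late lymphoma. Ptpn22 (1.61 ± 0.28, adjusted p = 0.00029), Fyb (1.21 ± 0.34, adjusted p = 0.0092), and the adaptors Sla (1.13 ± 0.20, adjusted p = 0.00027) and Sla2 (1.12 ± 0.22, adjusted p = 0.00066) were higher, and Csk was lower (-0.32 ± 0.09, adjusted p = 0.0096). Of 13 T cell surface genes, 13 fell in early and 12 in late lymphoma, and 6 were higher in late than in early lymphoma, led by Cd8b1 (2.04 ± 0.53, adjusted p = 0.0056), Cd7 (1.88 ± 0.62, adjusted p = 0.023), the inhibitory receptor gene Ctla4 (1.61 ± 0.32, adjusted p = 0.0008) and Cd28 (1.04 ± 0.34, adjusted p = 0.023). With the RNA ratios as covariates, 7 of the 27 signalling genes were higher and 0 lower, and 3 of the 13 surface genes were higher; Csk (-0.23, adjusted p = 0.133) and Cd28 (0.80, adjusted p = 0.169) were no longer called. With those covariates 6.44% of all probe sets were called. Against normal tissue, the receptor beta segment Trbv1 changed by -4.87 ± 0.28 in early and -4.31 ± 0.56 in late lymphoma, and the receptor-associated Trat1 by -1.30 ± 0.14 and -1.42 ± 0.25. Of 7 T lineage transcription factors, 6 fell in each group. Of 9 NK and cytotoxic genes, 9 fell in early and 8 in late lymphoma. This list does not set NK cells apart from cytotoxic T cells. Of 10 B lineage genes, 3 were higher and 2 lower in early, and 4 lower in late lymphoma. Beside these counts, 39.8% of all probe sets were lower in early and 32.4% in late lymphoma. Cd7, Cd27 and Tbx21 were above the array median on 17, 19 and 16 of 60 arrays, all 10 normal tissues among them. They passed the filter largely through normal tissue, so their falls add no support.

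Age was examined in normal nodes and within each lymphoma group. Between the 3 old and 6 young lymph nodes none of the 8 members was called by limma, 1 had an unadjusted p under 0.05 (Thy1, 0.31 ± 0.12, p = 0.024, adjusted p = 0.22), and the changes ran from -0.10 to 0.31; 1.42% of all probe sets were called. Along log2 age of onset none of the 8 was called in early lymphomas, where 8.98% of probe sets were, or in late lymphomas, where 0.0111% (3 probe sets) were. None had an unadjusted p under 0.05 in early and 1 had in late lymphomas, Cd3g, with a slope of 1.96 ± 0.71 in log2 per doubling of age (p = 0.01, adjusted p = 0.15). The remaining Zap70 probe set, 1440178_x_at, had a called slope in early lymphomas, -1.46 ± 0.43 (adjusted p = 0.033), while 1422701_at had -1.15 ± 0.59 (adjusted p = 0.22) and 1439749_at -0.34 ± 0.45; the call was lost with quantile normalization (-1.26, adjusted p = 0.0771) and with arrays centred on the median (-1.03, adjusted p = 0.0727).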

How the data were processed

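Total RNA of 60 tissues was measured; the deposited intensities are linear MAS5 values, and MAS5 is named in the submitters' processing notes without a version. Arrays were not rescaled. A probe set was kept if it exceeded its array's median on at least 10 arrays, and 64 control sets were dropped; 27094 probe sets of 12635 genes remained. The pseudocount was the table's median (157) divided by 10. Models were fitted in limma 3.58.1 under R 4.3.3, using lmFit and a trended eBayes, and were tested on simulated data. The probe set with the highest mean log2 value represented a member, with its other probe sets beside it, and all 8 measured members were named. From each of 11 context lists up to 4 genes were named, by size of change. The members and lists were chosen with earlier results of these data known. Alternatives were the pseudocount, the filter, scaling, robust eBayes, RNA ratios as covariates, other normal samples, left-out samples and other probe sets. Replicate numbers shared by early lymphomas and normal tissues were checked for pairing. Gene names came from the platform annotation and RefSeq (GRCm38.p6).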

Additional observations from a re-analysis of the deposited data

Results flagged for a closer look

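In 26 groups of 4 to 10 samples tested for a value far from the others, 6 held one; chance alone flags about 1 in 20 groups. Every group tested was of normal tissue: the 10 normal tissues, or the 6 young nodes among them, for each probe set. The lymphoma groups, of 25 samples each, were not tested, so the flags say nothing about them. The young nodes are counted in both kinds of group. The 26 groups are therefore not independent, and 1 in 20 is only a rough guide. The spleen, sample 7, was the lowest of the 10 for Cd3d (3255), Cd3g (2212), Prkcq (878) and Thy1 (2378), and each stood well below the next lowest tissue. Sample 10, an old lymph node, had the highest Zap70 by probe set 1440178_x_at (1636). Sample 8, an old lymph node, had the lowest Cd247 by probe set 1420716_at (43.3), a probe set below the array median on every array.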

How the results depend on the processing

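The counts of members lower than normal tissue stayed at 6 to 8 in early and 7 or 8 in late lymphoma under every alternative run (the 30-array filter leaves Prkcq untested), and the counts for old against young nodes and for both slopes stayed at 0, where a member counts by its representative probe set, by the RefSeq probe set of Zap70 or by all its probe sets jointly; the early slope of Zap70 was called by 1440178_x_at alone. Late against early lymphoma depended on the setting: 2 members were called as reported, 1 with no filter on low values, 0 with the RNA ratios as covariates (1745 probe sets called in all, beside 5951), 1 without lymphomas 117, 130, 131 and 133, and 1 to 2 when 1 lymphoma was left out. Signs were followed across settings for early and late lymphoma against normal tissue, late against early lymphoma, and the called early slope of Zap70. Those that turned were all in late against early lymphoma and among differences that were not called. For the nodes and the other slopes, signs were not followed. Lat was at 0.13 as reported, -0.031 with the RNA ratios, -0.021 without those 4 lymphomas and -0.042 to 0.25 with 1 lymphoma left out. Zap70 by 1422701_at was at 0.0046 with the pseudocount 4 times larger and -0.16 to 0.070 with 1 lymphoma left out, and Zap70 by 1440178_x_at was at -0.062 with the RNA ratios. The cause was not tested. The replicate numbers did not pair early lymphomas with normal tissues: over 9 shared numbers, the correlation of their deviations ran from -0.11 to 0.08, and 0 samples correlated best with their own number. With the number as a replicate block, fitted only on the samples of the 9 shared numbers, the count was 7, as reported. That fit called 16252 probe sets in all, beside 18460 in the main fit of all early lymphomas and normal tissues. These fits differ in their samples as well as in the block. Dim values limit what Cd3d and Prkcq can show among the lymphomas.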
